A study of Homo sapiens with 8 samples.

Results

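The genes described are 6 that act in the coat, growth and breakdown of lipid droplets, PLIN2, PLIN3, PLIN4, CIDEC, FITM2 and PNPLA2, as measured in the hepatoblastoma line HepG2, a human cell line widely used in place of hepatocytes. They were found by their symbols in the probe annotation and are covered by 7 of 29187 probes, 2 for CIDEC and 1 for each of the others, among 18819 genes tested. The 6 genes were selected on their log2 ratios, with earlier results of these same 8 arrays in view, so those ratios are a description here, given without p-values; where calls from the fit to all genes are counted among the 6, nothing is read from them. Cells were lipid-loaded for 24 h with 400 µM oleate on fatty acid-free albumin at a ratio of 6.6, per the treatment protocol, while the sample label names oleate together with palmitate; the sources used here do not settle this. After a wash, the loaded cells spent a further 24 h in medium without serum, with no compound (3 arrays), with 100 µM fenofibrate, a lipid-lowering drug whose acid activates the receptor PPARα (3 arrays), or with 1 mM linalool, a fragrant plant terpene alcohol (2 arrays). All 3 treated groups thus share the loading and the time without serum, and whether the untreated cells were also kept without serum is not given in the sources used here. Each array set 1 treated sample, in Cy3, against untreated HepG2 cells, in Cy5, with no dye swap.

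A lipid droplet is a core of triglyceride and sterol ester under a single layer of phospholipid, and it buds from the endoplasmic reticulum. Perilipins coat its surface and govern the access of lipases: PLIN2 is the coat protein of most non-adipose cells and is broken down when it is not bound to lipid, PLIN3 moves between cytosol and young droplets, and PLIN4 binds droplets through an unusually long run of repeats. FITM2 helps droplets to form at the endoplasmic reticulum, CIDEC lets droplets exchange lipid and fuse, and PNPLA2, also called ATGL, cuts the first fatty acid from triglyceride. PLIN2 is widely used as a marker of fat storage in hepatocytes, and several of these genes are known PPAR targets.

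The values are log2 ratios of the channels with each array's mean near 0, and the labels do not say which channel is the numerator. The signs below are those of the deposited table, and they do not tell whether treated or untreated cells held more of an RNA. The RNA is that of whole cultures, in which a change in every cell and a change in some of the cells cannot be told apart. A log2 ratio carries no absolute level, so the presence of hepatocyte genes in the cells could not be checked, and a dye effect particular to a gene stays in every ratio against untreated cells. The column standard deviation ran from 0.55 to 0.71 on the lipid-loaded arrays and from 0.46 to 0.54 on the other 5 arrays. For this reason the percentile of a gene among all genes of its array, which does not depend on that spread, is given beside its ratio. Fenofibrate replicate 3 stood apart: its Pearson r over genes with the other 7 arrays, averaged, was 0.127, where the rest had 0.440 to 0.716, and the fenofibrate means of the 6 genes and their differences from other groups are given with and without it. Arrays within a group are named biological replicates, without word of separate cultures, so a p-value covers no more than the scatter among these arrays, which may be technical.

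The stretches of 250 bases before the start of transcription are shown for PLIN2, PLIN3 and PNPLA2, whose ratios varied together over the arrays, and for PLIN4, whose ratio ran opposite to theirs. They come from RefSeq on GRCh38.p14 and lie at chr9:19127493-19127742 (minus strand) for PLIN2, chr19:4867668-4867917 (minus) for PLIN3, chr11:818664-818913 (plus) for PNPLA2 and chr19:4518487-4518736 (minus) for PLIN4. Capitals mark matches to 6 motifs searched on both strands.
PLIN2: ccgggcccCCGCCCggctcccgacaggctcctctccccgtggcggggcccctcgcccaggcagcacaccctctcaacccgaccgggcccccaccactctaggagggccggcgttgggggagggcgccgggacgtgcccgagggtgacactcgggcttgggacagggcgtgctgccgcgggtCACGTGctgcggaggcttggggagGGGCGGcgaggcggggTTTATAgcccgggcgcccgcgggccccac
PLIN3: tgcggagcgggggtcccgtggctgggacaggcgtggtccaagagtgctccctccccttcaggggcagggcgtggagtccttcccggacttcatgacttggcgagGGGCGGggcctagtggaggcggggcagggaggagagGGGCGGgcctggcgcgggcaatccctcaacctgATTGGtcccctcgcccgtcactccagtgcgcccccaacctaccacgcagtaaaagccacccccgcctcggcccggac
PNPLA2: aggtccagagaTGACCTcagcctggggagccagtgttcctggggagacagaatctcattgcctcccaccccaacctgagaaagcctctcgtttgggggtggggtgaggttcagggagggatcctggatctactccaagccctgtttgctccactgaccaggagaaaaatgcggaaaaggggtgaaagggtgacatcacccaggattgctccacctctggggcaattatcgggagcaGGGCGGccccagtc
PLIN4: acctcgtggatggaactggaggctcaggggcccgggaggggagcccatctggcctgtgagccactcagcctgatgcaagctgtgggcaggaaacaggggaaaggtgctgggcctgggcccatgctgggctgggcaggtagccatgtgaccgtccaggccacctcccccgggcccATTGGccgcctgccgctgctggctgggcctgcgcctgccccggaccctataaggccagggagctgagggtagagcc
The motifs were the E-box CACGTG, the GC box GGGCGG, the TATA box TATAAA, the box CCAAT, the nuclear receptor element AGGTCA, and a spaced pair of elements, AGGNCA followed after 1 base by AGGNCA, of the kind that PPAR and RXR bind together, which can contain the single element. No matches overlapped in the windows shown. PLIN2 held the E-box from −69 to −64, a TATA box from −29 to −24 on the strand opposite to the one printed, and a GC box at −242 (opposite strand) and −45, with the base before the start counted as −1. PLIN3 and PLIN4 each held a CCAAT box on the opposite strand, from −77 to −73 and from −76 to −72, and PLIN3 also held a GC box at −146 and −110. PNPLA2 held the receptor element on the opposite strand from −239 to −234 and a GC box at −14. Among 35116 windows of this length, 6.34% held the E-box, 10.7% the TATA box, 42.6% the GC box, 32% the CCAAT box and 12.1% the receptor element. The spaced pair was in 0.268% of windows and in 0 of the 7 windows of the 6 genes, CIDEC having 2. The PLIN2 stretch was 78.0% G or C, more than 94.3% of the windows, while PNPLA2, at 58.4%, lay near the median of 58.0%. A match is a description of letters and not a site of binding.

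Among the coat genes, PLIN2 had the largest differences between the linalool mean and the means of the other groups, while the gap to the nearest single array was wider for PLIN4. Its log2 ratio was 1.05, 0.93 and 0.86 on lipid-loaded replicates 1, 2 and 3, and 0.93, 0.97 and 0.40 on the fenofibrate replicates. On the linalool arrays it was 0.01 and −0.34. Both linalool values thus lay below every value of the other groups, while the lipid-loaded and fenofibrate values overlapped. Of all genes, 24.3% lay so below the lipid-loaded and 11.2% below the fenofibrate arrays, and the share below both was not computed. The group means were 0.95 ± 0.10 (SD, n = 3), 0.77 ± 0.32 (SD, n = 3) and −0.17 ± 0.25 (SD, n = 2), and the mean of lipid-loaded cells corresponds to a ratio of 1.93. Without fenofibrate replicate 3 the fenofibrate mean was 0.95. PLIN2 stood at percentile 97.0, 97.7 and 98.9 of the genes on the lipid-loaded arrays, at 99.3, 99.2 and 82.2 with fenofibrate, and at 45.4 and 19.3 with linalool. Its rank therefore separated linalool from the rest as its ratio did.

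PLIN3, the exchangeable coat protein, was positive on all 8 arrays, as were CIDEC and 13.2% of all genes. Its log2 ratio was 0.98, 0.80 and 0.68 on the lipid-loaded arrays, 0.74, 0.62 and 0.21 with fenofibrate, and 0.32 and 0.40 with linalool. The order of the means was lipid-loaded (0.82 ± 0.15), fenofibrate (0.52 ± 0.28) and linalool (0.36 ± 0.06). Both linalool values lay below the lipid-loaded ones, as for 24.3% of all genes. The fenofibrate values overlapped with both neighbours. Without fenofibrate replicate 3, the fenofibrate mean was 0.68 and its 2 values lay above both linalool values. On fenofibrate replicate 3, PLIN3 was at percentile 69.4, against 97.1 and 96.1 on the other fenofibrate arrays. The ranks with linalool were 75.8 and 84.0, between that array and the lipid-loaded range of 93.2 to 95.3.

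PLIN4, which lies on chromosome 19 as PLIN3 does, had the opposite order. Its log2 ratio was −0.62, −0.72 and −0.06 on the lipid-loaded arrays, −0.03, −0.33 and −0.08 with fenofibrate, and 0.47 and 0.46 with linalool. Every array without linalool was negative and both linalool arrays were positive, a change of sign shared by 3.71% of all genes against the lipid-loaded and 2.07% against the fenofibrate arrays. The means were −0.46 ± 0.35, −0.15 ± 0.16 and 0.47 ± 0.00 (SD 0.0015, n = 2), and the first 2 groups overlapped. The fenofibrate mean was −0.18 without fenofibrate replicate 3. An SD over 2 arrays says little about the spread of a group. The rank of PLIN4 ran from percentile 9.98 to 41.1 on the lipid-loaded arrays and from 20.6 to 43.4 with fenofibrate, and was 87.1 and 88.1 with linalool.

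**Figure D1:**
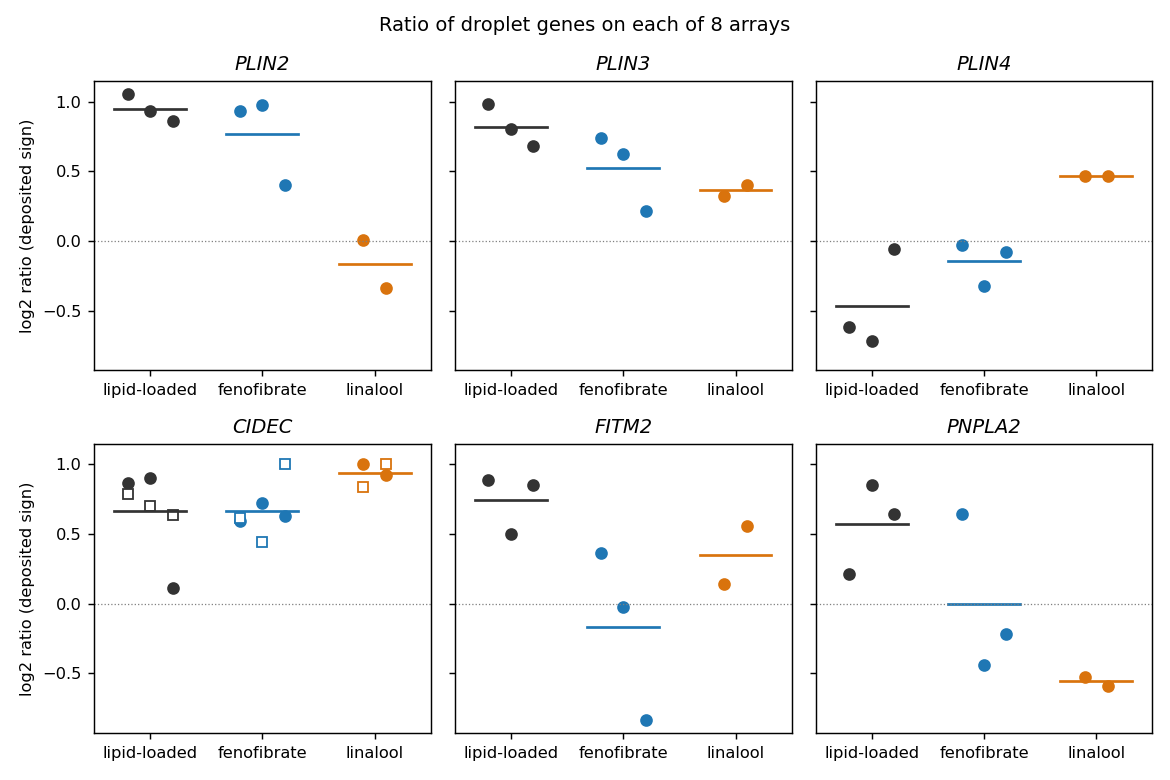
Log2 ratio (vertical axis, deposited sign) of each of the 6 genes on the 3 lipid-loaded, 3 fenofibrate and 2 linalool arrays, 1 point per probe and array; open squares are the second CIDEC probe and horizontal bars are group means. The linalool points of PLIN2 and PNPLA2 lie below those of the other groups, PLIN4 is above 0 only on the linalool arrays, and all CIDEC points are positive.

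CIDEC, the fusion protein, had positive means in the 3 groups that lay closer together than those of the other 5 genes. With all columns set to an equal spread this no longer held: the CIDEC means were then 0.52, 0.77 and 1.20 in lipid-loaded, fenofibrate and linalool cells, and those of PLIN3 0.65, 0.60 and 0.47. Averaged over its 2 probes, the log2 ratio was 0.82, 0.80 and 0.37 on the lipid-loaded arrays, 0.61, 0.58 and 0.82 with fenofibrate, and 0.92 and 0.96 with linalool. All 16 probe values were positive. The lipid-loaded mean of 0.66 ± 0.25 and the fenofibrate mean of 0.67 ± 0.13 lay within the spread of either group. Without fenofibrate replicate 3 the latter was 0.59. Both linalool values, with a mean of 0.94 ± 0.03, exceeded all others. Of all genes, 12.7% lay so above the lipid-loaded and 8.86% above the fenofibrate arrays, and the share above both was not computed. The probes parted on lipid-loaded replicate 3, at 0.11 and 0.63, and on fenofibrate replicate 3, at 0.63 and 1.00. With the second probe alone, linalool stood at 0.84 and 1.00, which fenofibrate replicate 3 overlapped. With the first probe alone the linalool values of 1.00 and 0.92 lay above all fenofibrate values. CIDEC ranked at percentile 98.8 and 99.0 with linalool and between 67.6 and 95.7 elsewhere.

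FITM2, which acts in droplet budding, differed most between lipid-loaded and fenofibrate cells. Its log2 ratio was 0.89, 0.50 and 0.85 on the lipid-loaded arrays, 0.36, −0.03 and −0.83 with fenofibrate, and 0.14 and 0.55 with linalool. The fenofibrate values all lay below the lipid-loaded ones, as for 12.4% of all genes, and the linalool values overlapped with both groups. The means were 0.75 ± 0.21, −0.17 ± 0.61 and 0.35 ± 0.29. FITM2 ranked at percentile 89.6, 77.9 and 98.7 on the lipid-loaded arrays and at 68.8, 41.5 and 3.36 with fenofibrate. With linalool it ranked at 58.2 and 92.7, the latter above lipid-loaded replicates 1 and 2. The negative fenofibrate mean rests on replicate 3, where FITM2 stood at percentile 3.36; without that array the mean was 0.17, with values of 0.36 and −0.03 that still lay below the lipid-loaded ones.

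PNPLA2, the first lipase of triglyceride breakdown, was positive on every lipid-loaded array and negative on both linalool arrays, as were 3.82% of all genes. Its log2 ratio was 0.21, 0.85 and 0.64 on the lipid-loaded arrays, 0.64, −0.44 and −0.22 with fenofibrate, and −0.52 and −0.59 with linalool. The fenofibrate arrays disagreed in sign and overlapped with the lipid-loaded group. The means were 0.57 ± 0.33, −0.01 ± 0.57 and −0.56 ± 0.05. The fenofibrate mean was 0.10 without fenofibrate replicate 3. Its rank spread from percentile 56.4 to 96.4 on the lipid-loaded arrays, was 93.6, 14.7 and 31.8 with fenofibrate, and was 11.6 and 8.56 with linalool.

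**Figure D2:**
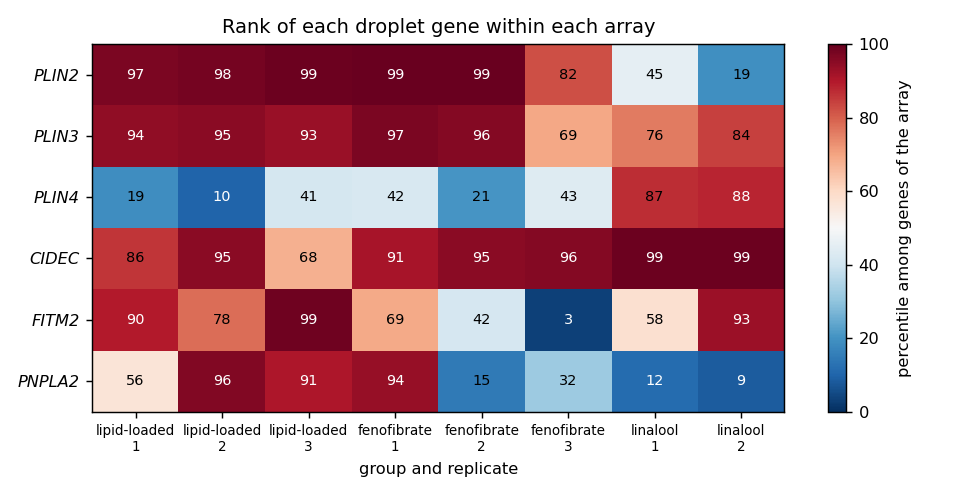
Percentile of the log2 ratio of each gene (rows) among the 18819 genes of each array (columns, by group and replicate), printed in each cell and coloured from blue (0) to red (100). PLIN2 stands at 97.0 or above on the lipid-loaded arrays and at 45.4 and 19.3 on the linalool arrays, whereas PLIN4 stands at 41.1 or below and at 87.1 and 88.1.

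The comparison of lipid-loaded with untreated cells concerns loaded cells that then spent the same further time in serum-free medium with no compound. In it, 5 of the 6 ratios were positive on all 3 arrays and PLIN4 was negative on all 3, where 38.3% and 27.9% of all genes were positive or negative throughout. In limma's fit to all genes, PLIN2, PLIN3, CIDEC and FITM2 were called with a positive ratio at an adjusted p under 0.05, 4 of 6, where 24.1% of all genes were called positive and 10.7% negative. PLIN4 and PNPLA2 were not called. Nothing is read from this count, since the genes were picked with these values known. It fell to 0 without lipid-loaded replicate 1 and with all columns set to an equal spread, to 2 (PLIN2 and PLIN3) without replicate 2, and to 3 with quantile normalization, which lost FITM2. Over all genes 0, 0, 2010 and 2850 were called in these settings, beside 6555 in the main fit. Without lipid-loaded replicate 3, FITM2 was lost and PLIN4 was called with a negative ratio, where 3087 of all genes were called. PLIN4 was also called with median centring (6255 of all genes called) and without fenofibrate replicate 3 (7772). PNPLA2 was called with array weights (7197 of all genes), with only the groups compared (7404) and without fenofibrate replicate 1 (6822). The count of the 6 was 5 in each of these cases. The median log2 ratio of the 6 genes was 0.70, beside 0.00 over all genes (a value of −0.0031).

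Against untreated cells, the fenofibrate group had PLIN2, PLIN3 and CIDEC positive and PLIN4 negative on all 3 arrays, where 21.5% and 15.3% of all genes were positive or negative throughout. Limma called 0 of the 6 genes and 0% of all genes at an adjusted p under 0.05, and at an unadjusted p under 0.05 it had 3 of the 6 and 3410 of all genes (18.1%). The median of the 6 was 0.26, beside 0.02 over all genes. In the linalool group PLIN3, PLIN4, CIDEC and FITM2 were positive and PNPLA2 negative on both arrays, where 38.6% and 27.8% of all genes were so. Limma called 0 of the 6 and 0% of all genes after adjustment, and 2 of the 6 and 2326 of all genes (12.4%) before it. CIDEC was called with a positive ratio when all columns were set to an equal spread or weighted, where 119 and 99 of all genes were called. The median of the 6 was 0.36, beside 0.04. Nothing is read from these counts and calls either, since the 6 genes were picked on these arrays.

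The differences between treated groups compare the arrays' ratios directly. A dye effect that is equally strong on all arrays cancels in them. In linalool minus lipid-loaded cells, PLIN2 differed by −1.11 (SE of the fit 0.27) on the log2 scale and PNPLA2 by −1.13 (SE 0.34). Only 0.494% and 0.457% of all genes had a more negative difference than these. PLIN4 differed by 0.93 (SE 0.27), above 97.2% of genes. PLIN3 differed by −0.46 (SE 0.26), FITM2 by −0.40 (SE 0.35) and CIDEC by 0.28 (SE 0.25). These 3 depended on the spread of the columns: with an equal spread they were −0.18, −0.14 and 0.68. Leaving out linalool replicate 1 or 2 moved FITM2 to −0.19 or −0.61, and leaving out lipid-loaded replicate 3 moved CIDEC to 0.13. The groups did not overlap for 3 of the 6 genes with a negative difference and for 2 with a positive one, where 24.3% and 12.7% of all genes were so separated. Limma called 0% of genes in this comparison after adjustment, none of the 6 among them, and 2176 genes (11.6%) at an unadjusted p under 0.05, 3 of the 6 among them.

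In fenofibrate minus lipid-loaded cells, FITM2 differed by −0.91 (SE 0.31), with 0.446% of genes more negative, and PNPLA2 by −0.57 (SE 0.30). FITM2 was the 1 gene of the 6 whose groups did not overlap, where 12.4% of all genes were separated with a negative and 6.39% with a positive difference. Without fenofibrate replicate 3 the FITM2 difference was −0.58, which is smaller by over 1.5 times. PLIN2 differed by −0.18 (SE 0.24), PLIN3 by −0.30 (SE 0.23), PLIN4 by 0.32 (SE 0.24) and CIDEC by 0.00 (a value of 0.0035, SE 0.23). These 4 were, without fenofibrate replicate 3, 0.00 (a value of 0.0036), −0.14, 0.29 and −0.07, and PNPLA2 was at −0.47. PNPLA2 ranged further, to −0.90 without fenofibrate replicate 1 and −0.36 without replicate 2. With all columns set to an equal spread, PLIN2 differed by 0.13, PLIN3 by −0.05, PLIN4 by 0.18 and CIDEC by 0.25. PLIN4 was at 0.19 without lipid-loaded replicate 2 and at 0.52 without replicate 3, where CIDEC was at −0.14. Limma called 0% of genes after adjustment, and 1934 (10.3%) at an unadjusted p under 0.05, 1 of the 6 among them.

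In linalool minus fenofibrate cells, PLIN2 differed by −0.93 (SE 0.27), with 0.887% of genes more negative, and PLIN4 by 0.61 (SE 0.27), above 95.5% of genes. PNPLA2 differed by −0.55 (SE 0.34), FITM2 by 0.51 (SE 0.35), CIDEC by 0.27 (SE 0.25) and PLIN3 by −0.16 (SE 0.26). Without fenofibrate replicate 3, FITM2 differed by 0.18 and PLIN3 by −0.32, PNPLA2 by −0.66, CIDEC by 0.35, PLIN2 by −1.12 and PLIN4 by 0.64. Without fenofibrate replicate 1, PNPLA2 was at −0.23, PLIN3 at −0.05 and FITM2 at 0.78. The values for these 3 genes thus rest on single fenofibrate arrays. With all columns set to an equal spread CIDEC was at 0.44. PLIN2 and PNPLA2 were separated with a negative and PLIN4 and CIDEC with a positive difference, where 11.2% and 8.86% of all genes were so. Limma called 0% of genes after adjustment and 944 (5.02%) at an unadjusted p under 0.05, 2 of the 6 among them. These 3 differences share groups, as each group enters 2 of them. Nothing is read from the counts of the 6 genes in them, since the genes were picked on these arrays.

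**Figure D3:**
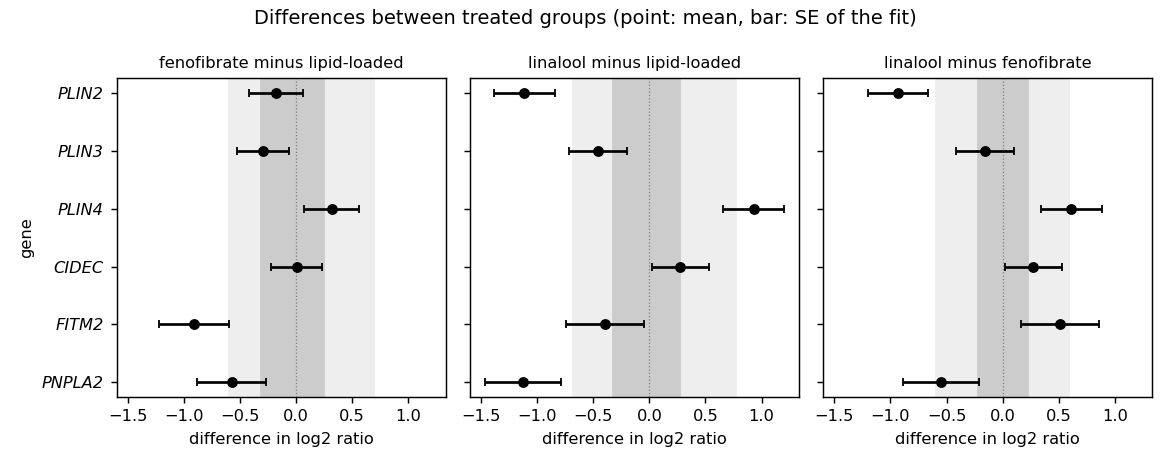
Difference in log2 ratio between the treated groups (horizontal axis) for each of the 6 genes; points are differences of group means and bars 1 SE of limma's fit, with dark and light grey bands for the middle 50% and 90% of the 18819 genes. PLIN2 at −1.11 and PNPLA2 at −1.13 lie left of both bands in linalool minus lipid-loaded cells, PLIN4 at 0.93 lies to the right, and FITM2 at −0.91 lies to the left in fenofibrate minus lipid-loaded cells.

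Across the 8 arrays, the 6 genes did not vary as 1 group. PLIN2 and PLIN3 had a Pearson r of 0.775, PLIN2 and PNPLA2 of 0.698, and PLIN3 and FITM2 of 0.730. PLIN4 ran against PLIN2 at r = −0.849, against PLIN3 at −0.734 and against PNPLA2 at −0.604. CIDEC correlated negatively with PLIN2, at −0.649, and with PNPLA2, at −0.516. These values are a description over 8 arrays in 3 groups, all set against untreated cells, and differences between the group means enter them. Fenofibrate replicate 3 also enters them, and they were not computed without it.

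Among all 18819 genes, those closest to PLIN2 in pattern over the 8 arrays were SMIM3 (r = 0.986), PFKFB4 (0.972) and LOX (0.970). PFKFB4, an enzyme that sets the level of a glycolysis activator, had mean log2 ratios of 0.45, 0.18 and −0.73 in the lipid-loaded, fenofibrate and linalool groups. LOX, which cross-links collagen, stood at 0.51, 0.38 and −0.65. Closest to PNPLA2 were IRAK2 (r = 0.976), GLTPD2 (0.968) and MKI67 (0.966), the last a marker of dividing cells at 0.50, 0.08 and −0.34. PLIN3 was matched most closely by the cell cycle kinase CDK2 (0.991), ECHDC2 (0.986) and UBALD2 (0.986), and FITM2 by ZBTB11 (0.990), TMEM184C (0.990) and RNASEK (0.987). For PLIN4 they were STUM (0.972), NDUFA10 (0.964) and LINC02447 (0.956), and for CIDEC the olfactory receptor genes OR2M2 (0.983) and OR14I1 (0.971) with SNED1 (0.965). With this many genes and 8 arrays, some high values occur for any gene. These values too were not computed without fenofibrate replicate 3.

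Around these 6 genes, 53 other measured genes of droplets and glycerolipid synthesis were followed in lists. The lists too were chosen with earlier results of these data known. Their calls and p-values describe these arrays and are no independent support. In lipid-loaded against untreated cells, limma called 15 of them positive and 1 negative at an adjusted p under 0.05, where 24.1% and 10.7% of all genes were. The median of the 53 was 0.38, beside −0.0031 over all genes. The count rests on few arrays and on the scaling: it was 0 without lipid-loaded replicate 1, 2 without replicate 2, 9 without replicate 3, 24 without fenofibrate replicate 3, 4 with quantile normalization and 0 with all columns set to an equal spread. Over all genes the count in these settings was 0, 2010, 3087, 7772, 2850 and 0. With the arrays centred on the median the split was 9 positive and 5 negative, as it was 3350 to 2905 over all genes in place of 4537 to 2018. The 4 genes called with quantile normalization were AUP1, CES1, LIPA and TMT1B.

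Genes of droplet formation held 7 of these calls among 12 measured, all positive. AUP1, a protein of the droplet surface, had a mean log2 ratio of 0.73 (SE 0.15, n = 3, limma adjusted p = 0.0135) and SOAT1, which esterifies cholesterol, at 0.67 (SE 0.19, limma adjusted p = 0.0224). DGAT2 and DGAT1, the enzymes of the last step of triglyceride synthesis, were at 0.56 (SE 0.15, limma adjusted p = 0.0216) and 0.50 (SE 0.15, limma adjusted p = 0.0303). BSCL2, or seipin, which organises the site of budding, was at 0.58 (SE 0.19, limma adjusted p = 0.0346). SOAT1, DGAT2, DGAT1 and BSCL2 were not called with quantile normalization, and DGAT1 and BSCL2 were also lost with median centring. FITM1, the muscle relative of FITM2, was at −0.39 (SE 0.23, limma adjusted p = 0.192). Among 12 other droplet proteins 3 were called, all positive, near the 24.1% of all genes called positive. The droplet dehydrogenase HSD17B11, at 0.66 (limma adjusted p = 0.0205), was one of them. HSD17B13, its liver relative, was at −0.38 (limma adjusted p = 0.168).

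The lipolysis list, to which PNPLA2 is related, was split. Of 12 measured genes 3 were called, all positive, near the 24.1% of all genes called positive. CES1, a carboxylesterase, was at 0.64 (SE 0.15, limma adjusted p = 0.0151) and LIPA, the lysosomal acid lipase, at 0.67 (SE 0.17, limma adjusted p = 0.0168). FAF2, which recruits the machinery that degrades droplet proteins, was at 0.70 (SE 0.18, limma adjusted p = 0.0182). The partners of PNPLA2 were not called in the main fit. ABHD5, its co-activator, stood at 0.20 (SE 0.16, limma adjusted p = 0.339). G0S2, its inhibitor, was between −0.54 and −0.40 on the 3 arrays, with a mean of −0.47 (SE 0.17, limma adjusted p = 0.0525), and was called with median centring, with array weights and without fenofibrate replicate 3. HILPDA, another inhibitor, was at 0.40 (SE 0.18, limma adjusted p = 0.0951). LIPE, the next lipase in the chain, was at −0.43 (SE 0.17, limma adjusted p = 0.0705), and was called with median centring and with array weights. The list median was −0.07, beside −0.0031 over all genes.

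The closest relatives of the described coat and fusion genes were not called in the main fit, 0 of 4, where 24.1% of all genes were called positive and 10.7% negative. PLIN1, the coat protein of fat cells, was at −0.38 (SE 0.24, limma adjusted p = 0.21), PLIN5 of oxidative tissues at −0.10 (SE 0.22), CIDEA at −0.29 (SE 0.29) and CIDEB, the family member of hepatocytes, at 0.44 (SE 0.16, limma adjusted p = 0.0512). CIDEB was called with the replicate block, with array weights and without fenofibrate replicate 3. In glycerolipid synthesis, AGPAT1 (0.61, limma adjusted p = 0.0265) and GPAM (0.53, limma adjusted p = 0.0482) were called with a positive ratio. AGPAT4 (−0.78, limma adjusted p = 0.0378) was called with a negative one, which makes 3 of 13 measured acyltransferases and lipins. None of the 3 was called with quantile normalization, and AGPAT1 and GPAM were also lost with median centring. GPAM was lost as well with only the groups compared and without fenofibrate replicate 2.

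In the other 5 comparisons limma called 0 of the 53 genes after adjustment, except that GPAT3 was called with a positive ratio in linalool against untreated cells when all columns were set to an equal spread or arrays were weighted. At an unadjusted p under 0.05, 5 were positive and 0 negative in the fenofibrate group against untreated cells, where 11.1% and 7.05% of all genes were. The counts were 11 and 0 without fenofibrate replicate 3, beside 14.8% and 8.62%. In the linalool group they were 7 and 1, beside 6.7% and 5.66% of all genes. GPAT3, a glycerol phosphate acyltransferase, was at 0.99 and 1.09 on the linalool arrays, against 0.14 to 0.32 on the lipid-loaded and −0.01 to 0.58 on the fenofibrate arrays (linalool mean 1.04, SE 0.20, limma adjusted p = 0.133). PNPLA4, a lipase relative of PNPLA2, was at 0.48 and 0.76 with linalool, above all other arrays, against −1.08 to 0.16 on the lipid-loaded ones (difference 1.20, SE 0.36, limma adjusted p = 0.355). In linalool minus lipid-loaded cells DGAT1 differed by −0.72 (SE 0.24, limma adjusted p = 0.358) and LIPE by 0.73 (SE 0.27, limma adjusted p = 0.382). In that comparison 3 of the 53 genes were positive and 4 negative at an unadjusted p under 0.05, where 5.43% and 6.14% of all genes were, and the median of the 53 was −0.24, beside −0.06. The groups did not overlap for 5 of the 53 with a positive and 22 with a negative difference, beside 12.7% and 24.3% of all genes. In fenofibrate minus lipid-loaded cells 1 was positive and 2 negative at that level, beside 5.35% and 4.93% of all genes, and both counts were 0 without fenofibrate replicate 3. In linalool minus fenofibrate cells they were 3 and 1, beside 2.5% and 2.52%, and 2 and 1 without that array. There 7 of the 53 were separated with a positive and 8 with a negative difference, beside 8.86% and 11.2% of all genes.

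**Figure D4:**
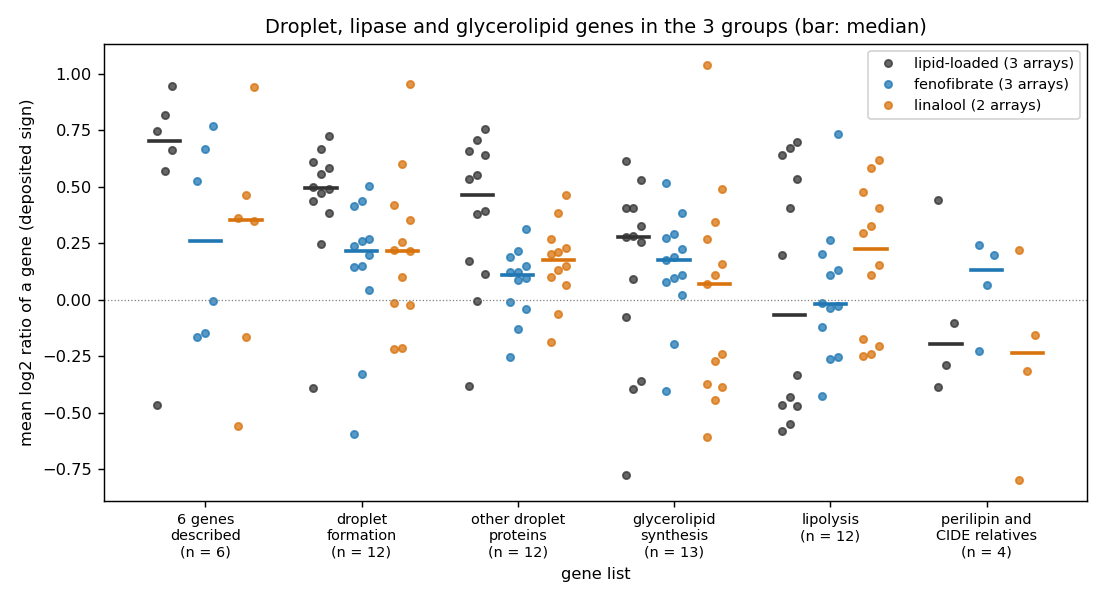
Mean log2 ratio (vertical axis, deposited sign) of each gene of the 6 described genes and of 5 related lists, in lipid-loaded (black), fenofibrate (blue) and linalool (orange) cells; each point is a gene and each bar the median of its list. The bars of droplet formation lie at 0.49, 0.22 and 0.22 and those of lipolysis at −0.07, −0.02 and 0.22.

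Marker genes of cell types were followed beside these genes. The 8 measured hepatocyte markers, among them ALB and APOA1, had medians per array from 0.53 to 0.87 on the lipid-loaded arrays, from 0.36 to 0.81 with fenofibrate (0.36 to 0.56 without replicate 3) and from −0.12 to 0.32 with linalool. In linalool minus lipid-loaded cells 8 of 8 had a negative difference, with a median of −0.58 beside −0.06 over all genes, and 0 were called. The sizes differed, from −0.11 for SERPINA1 and −0.18 for APOB to −0.93 for APOA1. In the fenofibrate group 7 of the 8 had a positive mean, with a list median of 0.58, and PLIN2 was at 0.77. The exception, FGB, had a mean of −0.63 there, with values that ran from −1.94 to 0.17. In lipid-loaded cells limma called 7 of the 8 with a positive ratio, where 24.1% of all genes were called so. Medians of 6 adipocyte markers lay between −0.248 and 0.136 over all arrays, and 1 of them, ADIPOQ, was called with a negative ratio in lipid-loaded cells. Those of 8 stromal, endothelial and blood markers ran from −0.545 to −0.423, from −0.494 to 0.027 and from −0.315 to 0.011 in the 3 groups, and 4 were called with a negative ratio in lipid-loaded cells, where 10.7% of all genes were. With linalool 2 of these 8 had a positive mean, COL1A1 at 0.03 and CD14 at 1.20. CD14 was at 1.17 and 1.22 on the linalool arrays, with means of 0.09 in lipid-loaded and 0.20 in fenofibrate cells. Every one of these marker calls was lost with all columns set to an equal spread and without lipid-loaded replicate 1. Without replicates 2 and 3 in turn, 3 hepatocyte and 1 stromal, endothelial or blood marker were called each time. Their part in the ratios of the 6 genes was not tested.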

How the data were processed

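RNA of HepG2 cells was compared on 8 two-colour arrays, 3 for lipid-loaded cells, 3 with fenofibrate and 2 with linalool. The authors deposited 1 log2 ratio for each of 29187 probes and array, with 4 missing values; how they corrected background and normalized is not given in the sources used here, and scanner output was not analysed. That the values are log2 was settled from the deposited values. After a constant was added per array, 100% of the values in the range checked fell within 0.0001 of the log2 of a number with 3 decimals. The constant was the best of a scan on a part of each array's values, and very high and very low ratios were left out. The medians by column were −0.0048, 0.0402 and 0.058 for lipid-loaded cells, 0.0865, 0.0635 and −0.012 for fenofibrate, and 0.0452 and 0.0507 for linalool. Scale and centring are thus known, and the numerator stays unknown.

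Of the probes, 25053 had 1 gene symbol, 0 several and 4134 none; 24981 matched a current gene by identifier, and 0 symbols changed. Probes of a gene were averaged, and the 18819 genes with at least 2 values in every group entered 1 two-sided limma fit (version 3.58.1, R 4.3.3; functions lmFit and eBayes) with a coefficient for each group, and p-values were adjusted over all genes by Benjamini-Hochberg. Files were read with the package data.table (version 1.17.8). A group against untreated cells is its ratio tested against 0. Whether the arrays shared 1 sample of untreated cells was not established here, so it is not known how far the spread of untreated cells enters. The 6 genes and the lists were chosen with earlier results of these data known. Listed genes ACSL3, GPAT2, AGPAT3 and HNF4A were not analysed here, and METTL7A and METTL7B were found under TMT1A and TMT1B. Named were the 6 genes, genes of the lists, and for each of the 6 the 3 genes of highest Pearson r over the arrays. The fit was tested on simulated data with independent noise for each gene and array. That simulation had no unequal column spread, shared shift or outlying array, so it cannot show how these affect the calls. The alternatives were quantile normalization, equal spread, median centring, a replicate block, array weights, fits of only the groups compared, the median of probes, and each array left out.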

Additional observations from a re-analysis of the deposited data

Results flagged for a closer look

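PLIN4 was negative on all 3 lipid-loaded and all 3 fenofibrate arrays and positive on both linalool arrays, with differences of 0.93 and 0.61 on the log2 scale. Such opposite signs on every array, in the same direction, were found for 3.71% and 2.07% of all genes. PNPLA2 was positive on all 3 lipid-loaded arrays and negative on both linalool arrays, with a difference of −1.13, a pattern of 3.82% of genes. The opposition of signs was not tested, and limma called 0 of 18819 genes in these comparisons after adjustment, with 2176 and 944 at an unadjusted p under 0.05.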

How the results depend on the processing

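For the 6 genes, 36 values (group means and differences) were computed under 15 alternatives, and 31 kept their sign under all of them. The exceptions were PLIN2 in linalool against untreated cells (0.01 without linalool replicate 2), FITM2 in the fenofibrate group (0.17 without fenofibrate replicate 3), PNPLA2 in the fenofibrate group (0.21 without replicate 2, 0.10 without replicate 3), and PLIN2 and CIDEC in fenofibrate minus lipid-loaded cells (from −0.28 to 0.13 and from −0.14 to 0.25). Of 540 alternative values, 518 lay within 1 SD of the reported one. That SD was the one among the arrays of the group, or for a difference the root of the summed variances of both groups. Some alternatives cannot change a value, such as leaving out an array of another group or the median of a single probe. This count and the 31 kept signs are therefore not read as robustness. Over the 15 alternatives the linalool minus lipid-loaded difference ran from −1.29 to −0.94 for PLIN2, from −1.30 to −0.98 for PNPLA2 and from 0.80 to 1.13 for PLIN4, and from −0.57 to −0.18 for PLIN3, from −0.61 to −0.14 for FITM2 and from 0.13 to 0.68 for CIDEC. The count of genes called in lipid-loaded against untreated cells, 6555, was 2850 with quantile normalization, 0 when all columns were given an equal spread (lowest adjusted p 0.0603), 6784 with the replicate block, and from 0 to 7772 with 1 array left out (0, 2010 and 3087 without lipid-loaded replicates 1, 2 and 3). The count of 0 became 1 with array weights in the fenofibrate group, and 119 with equal spread and 99 with array weights in the linalool group. With 1 array left out, it ran from 0 to 1 in the fenofibrate group (1 without fenofibrate replicate 3) and from 0 to 6 in the linalool group (6 without fenofibrate replicate 3, 4 and 2 without linalool replicates 1 and 2). It stayed 0 in fenofibrate minus lipid-loaded cells, ran from 0 to 1 in linalool minus lipid-loaded cells (1 without linalool replicate 1) and from 0 to 3 in linalool minus fenofibrate cells (3 and 1 without linalool replicates 1 and 2). A group left with 1 array was assumed to vary like the others. The replicate block gave 0 calls in these 5 comparisons and called the same 4 of the 6 genes in lipid-loaded cells. Same-numbered arrays of the lipid-loaded and fenofibrate groups had correlations of their deviations from the group means of 0.14, −0.021 and 0.083, so the numbers were not taken to pair the arrays. The cause of these shifts was not tested. Signal over background was not analysed here, so how far dim spots limit a ratio is unknown.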
